A study of Mus musculus with 62 samples.

Results

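The soleus (SOL) and the gastrocnemius (GC) of the same floxed mice were compared by RNA sequencing, muscle by muscle. The members are the 10 libraries, 5 of SOL and 5 of GC, that the table labels as wild type on chow, out of 62 libraries in the series. They come from male mice of 8 to 10 weeks whose genotype is given as ChREBP-flox, called F/F: exon 8 of Mlxipl, the gene of the transcription factor ChREBP, is flanked by loxP sites, and no Cre is present. All were fed chow and received no treatment. Libraries were paired by the mouse number at the end of the column name (57, 58, 69, 70 and 71), and 13235 genes whose level averaged 0.5 FPKM or more over the 10 libraries were tested. A further 10 libraries, GC and SOL of 5 littermates that carry the floxed gene with Mck-cre (ChMKO, numbers 59, 60, 61, 72 and 74), were used to ask which differences appear again in other animals. MCK-Cre acts in skeletal and heart muscle fibers, so other cells of a ChMKO muscle keep the gene.

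GC and SOL lie together at the back of the lower leg and share a tendon. In the mouse, SOL is a postural muscle rich in slow-twitch and oxidative fast-twitch fibers, while most of GC is built of fast glycolytic fibers. A fiber's type is set by which member of each sarcomere gene family it uses, with Myh7 marking slow fibers and Myh2, Myh1 and Myh4 marking fast fibers of types IIa, IIx and IIb. Slow and type IIa fibers burn fatty acids in mitochondria and are densely supplied with capillaries. Fast glycolytic fibers break down stored glycogen and release calcium in short, strong pulses.

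Levels are given as scaled FPKM, which is the deposited FPKM (fragments per kilobase of gene, relative to all mapped fragments of the library) divided by a factor that sets the median gene of each library equal. The factors were 0.915 to 0.951 in GC and 1.02 to 1.10 in SOL. Mapped totals read back from entries with a single read were 16390300 to 17232200 in GC and 16837000 to 17691800 in SOL. Within a muscle, libraries correlated at 0.970 to 0.987 in GC and at 0.964 to 0.990 in SOL across genes, which are not independent replicates. On the second principal component (11.8% of the variance, against 66.1% for the first, which parts the muscles) SOL of mouse 71 and GC of mouse 69 stood apart from the other libraries. The SOL library with number 69 in its column name has number 59, that of a ChMKO mouse, in its title, so the pairing of that mouse is uncertain. As 1 library was made per muscle and mouse, p-values weigh the mean difference between muscles against its variation between these 5 mice.

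SOL and GC differed over much of the transcriptome. Of the 13235 genes, 3204 (24.2%) were higher in SOL at an adjusted p under 0.05 and 2519 (19%) were lower, which is the background of every list count. With a log2 fold change of at least 1 as well, 498 (3.76%) were higher and 456 (3.45%) lower. Across the 13235 genes the median difference was 0.04 on the log2 scale. Among the genes past the fold limit 387 of the higher and 378 of the lower ones code for protein, and long non-coding RNAs contributed 66 and 51. With the deposited FPKM left unscaled the median moved to 0.18 and the counts with the fold limit were 714 and 342. Without mouse 69 they were 461 and 464, and without mouse 71 they were 465 and 415.

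Slow-twitch sarcomere genes were among those with the largest rises in SOL. Of 19 genes in this list 17 rose in SOL and 1 fell, with a median log2 fold change of 3.69 against 0.04 over all genes. Together they took 0.302 ± 0.128% of all FPKM in GC and 3.89 ± 0.57% in SOL (SD, n = 5 each).

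Tnnc1, the slow and cardiac troponin C that senses calcium on the thin filament, measured 0.438, 51.0, 3.76, 27.1 and 21.6 in GC of mice 57, 58, 69, 70 and 71. In SOL of the same mice it measured 2123, 2682, 2115, 2702 and 3918. Every SOL library lay above every GC library, and in proportion to their mean the GC values were spread more widely than the SOL values (SD 20.4 on a mean of 20.8, against 735 on 2708). The log2 fold change was 7.81 ± 0.62 (SE, adjusted p = 0.000117). Tnni1, the slow inhibitory subunit of troponin, measured 0.448, 10.4, 1.12, 6.14 and 4.45 in GC and 530.4, 606, 504, 726 and 1050.3 in SOL. Its 152-fold difference in means was larger than that of Tnnt1, the slow subunit that binds tropomyosin, which measured 21.5 ± 22.8 in GC and 2164 ± 615 in SOL (SD, 101-fold, log2 fold change 7.22, adjusted p = 6.33e-05).

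The thick filament changed in the same direction. Myh7, the slow myosin heavy chain, measured 0.214, 39.5, 1.86, 19.8 and 18.1 in GC and 1750.4, 1846, 1608, 2086 and 1815 in SOL (log2 fold change 7.67 ± 0.68 SE, adjusted p = 0.000173). GC of mouse 57 held almost no Myh7 and GC of mouse 58 the most, and the SOL values lay close together. The slow light chains Myl2 and Myl3 were 39.5-fold and 37.9-fold higher in SOL, with adjusted p of 8.25e-05 and 9.36e-05. Myh7b, a further heavy chain gene, rose from 0.468 ± 0.375 to 18.2 ± 6.90 (adjusted p = 2.49e-05), and its highest SOL value, 30.3, was in mouse 71. Tpm3, the slow tropomyosin, rose from 6.95 ± 3.66 to 495 ± 154 (adjusted p = 8.64e-06), although reads may be shared with its processed copy Tpm3-rs7.

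Genes of the Z-disc and the sarcomere's mechanical sensors followed. Myoz2, which links actinin to calcineurin, measured 57.2 ± 49.0 in GC and 802 ± 161 in SOL (adjusted p = 0.000117). Ankrd2, a stretch-responsive titin partner, was 11.6-fold higher (adjusted p = 0.000138) and Csrp3, a muscle LIM protein, 7.91-fold higher (adjusted p = 0.000435). The member that fell was Mybph, a myosin-binding protein, at 24.6 ± 17.9 in GC and 2.46 ± 4.00 in SOL (log2 fold change -3.03, adjusted p = 0.00591). SOL of mouse 70, at 9.61, was higher in Mybph than GC of mouse 71, at 4.44, so the muscles overlapped. Xirp2 measured 199.8 ± 19 and 165 ± 39.7 and missed the threshold (log2 fold change -0.30, adjusted p = 0.102).

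Of 16 fast-twitch sarcomere genes 14 fell in SOL, 1 rose and 1 did not pass, with a median of -1.74. Their share of all FPKM was 12.6 ± 2.3% in GC and 4.20 ± 0.28% in SOL. Myh4, the heavy chain of type IIb fibers, measured 12916, 9382, 12067, 11868 and 13244 in GC and 1189, 17.7, 792, 258 and 384 in SOL. The muscles did not overlap, and SOL of mouse 58 held far less Myh4 than SOL of the other mice. The log2 fold change was -5.39 ± 0.72 (SE, adjusted p = 0.00103). Actn3, the actinin confined to fast fibers in textbook accounts, measured 3812, 2793, 4984, 3408 and 4229.8 in GC and 401.1, 32.6, 253, 149 and 169 in SOL, again with mouse 58 lowest (log2 fold change -4.61, adjusted p = 0.000131).

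The fast genes did not fall alike. Mybpc2, the fast myosin-binding protein C, was 15.2-fold lower in SOL (adjusted p = 3.83e-05) and Mylk4, a myosin light chain kinase, 7.96-fold lower (adjusted p = 0.000422). The fast troponins fell by much less, Tnnc2 by 2.40-fold, Tnni2 by 2.14-fold and Tnnt3 by 2.05-fold, with adjusted p of 0.0033, 0.00494 and 0.00303. With no filter on level Tnnc2 missed the threshold. The member that rose was Myh2, the heavy chain of type IIa fibers, at 409, 1146, 166, 736 and 317 in GC and 1829.5, 2382, 2064, 2094 and 994 in SOL (log2 fold change 2.00 ± 0.34 SE, adjusted p = 0.00303). SOL of mouse 71 was below GC of mouse 58, so the muscles overlapped for Myh2 while each mouse had more in SOL. Myh1, the heavy chain of type IIx fibers, measured 1146 ± 298 in GC and 1201 ± 352 in SOL and missed the threshold (log2 fold change 0.06, adjusted p = 0.72).

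**Figure D1:**
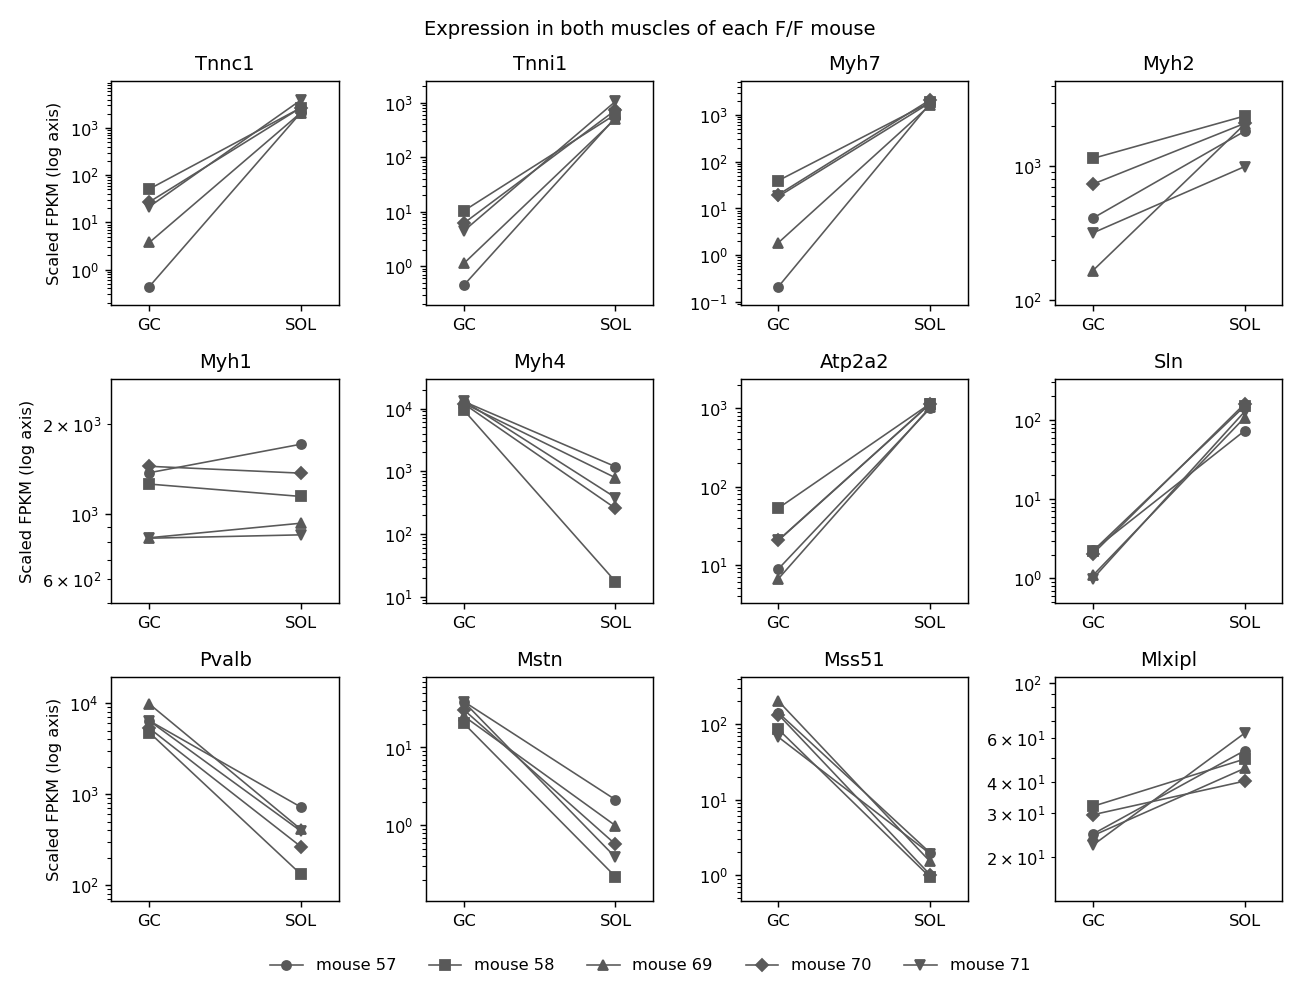
Scaled FPKM (log axis) of 12 genes in GC and SOL, with a line for each of the 5 F/F mice. Slow genes climb from GC values that differ widely between mice to SOL values that lie together, Myh4 ends between 17.7 and 1189 in SOL, and the Myh1 lines run nearly flat.

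As shares of the 4 adult heavy chain genes, Myh4 made up 87.2 ± 5.5% in GC, with Myh1 at 8.47 ± 2.27%, Myh2 at 4.24 ± 3.38% and Myh7 at 0.123 ± 0.134% (SD, n = 5). In SOL Myh7 held 34.4 ± 6.9%, Myh2 34.3 ± 7.9%, Myh1 21.9 ± 3.4% and Myh4 9.46 ± 7.33%. The SOL share of Myh4 was 18.3% in mouse 57, 0.328% in mouse 58, 14.7% in mouse 69, 4.44% in mouse 70 and 9.49% in mouse 71. These are shares of transcript per length over the whole muscle, not of fibers.

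The same partition was asked of 10 pairs of related genes, with 1 member named slow and the other fast. Of the actinins only Actn3 is taken as confined to a fiber type, and Ldhb is the heart form of its enzyme. For Actn2 and Ldhb slow is therefore a label of the pair. In GC the slow gene held a mean of 0.122% (Tnni1) to 7.70% (Actn2) of its pair. In SOL its share ran from 12.8 ± 3.0% for the calsequestrin Casq2 to 87.7 ± 8.0% for Actn2. The troponins stayed mainly fast in SOL, with slow shares of 26.0 ± 3.2% (Tnnc1), 24.2 ± 4.8% (Tnni1) and 36.0 ± 5.7% (Tnnt1). The myosin regulatory light chain and the myozenins were mainly slow there, with 60.9 ± 6.8% for Myl2 and 69.7 ± 7.3% for Myoz2. For each pair all 5 SOL libraries lay above all 5 GC libraries.

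**Figure D2:**
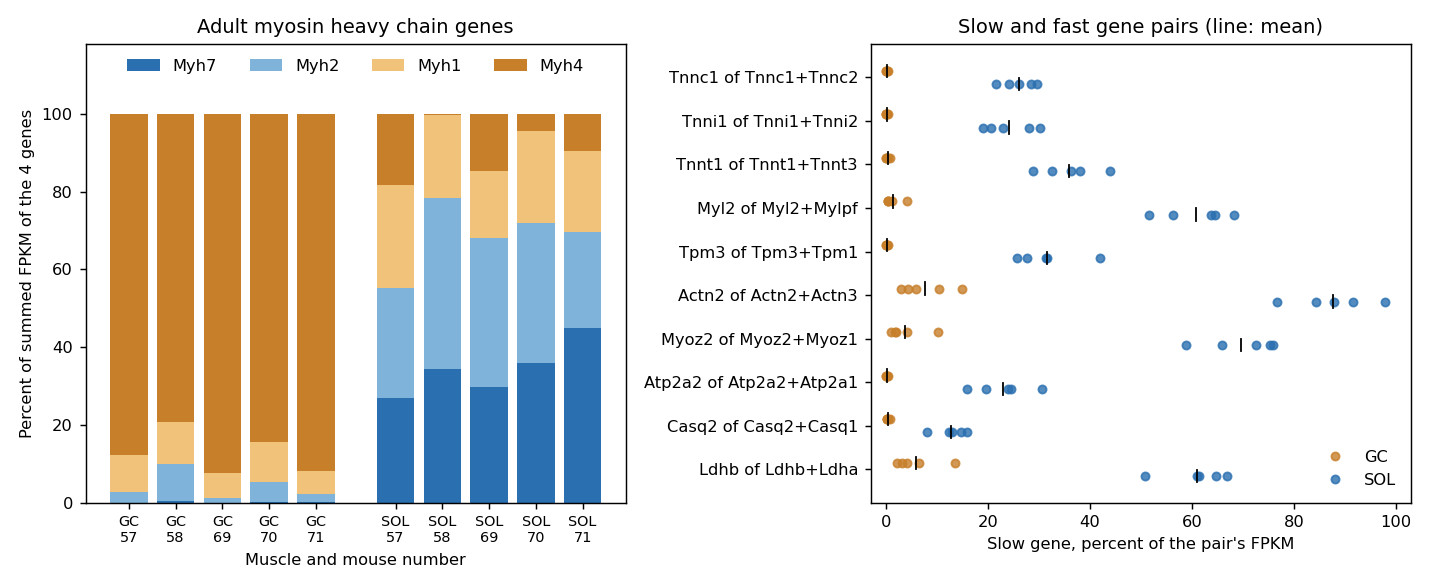
Left, share of each adult myosin heavy chain gene in the summed FPKM of the 4, for each muscle and mouse. Right, share of the gene named slow in 10 pairs, with a point per library and a line at the mean of 5. GC points lie between 0.00258% and 14.9% and SOL points between 8.09% and 97.9%, with Actn2 highest in both.

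The promoters of Tnnc1 and Tnni1 are shown because these slow troponin genes were among those with the largest rises, and those of Myh2 and Myh4 because these genes lie in the same myosin cluster on chromosome 11 and moved in opposite directions. The sequences are from RefSeq on GRCm38.p6 and hold 300 bases, 250 before a transcript start and 50 after it, 5′ to 3′ on the strand of the gene. For Tnni1, the first of 2 starts listed by RefSeq is shown, which lies inside the span that the deposited table gives for the gene. Capitals mark matches, on either strand, to the E-box CAGCTG, the MCAT motif CATTCC, the TATA motif TATAAA, the estrogen-related receptor motif AAGGTCA, the MEF2 site or the CArG box.
Tnnc1, chr14:31208062-31208361, plus strand: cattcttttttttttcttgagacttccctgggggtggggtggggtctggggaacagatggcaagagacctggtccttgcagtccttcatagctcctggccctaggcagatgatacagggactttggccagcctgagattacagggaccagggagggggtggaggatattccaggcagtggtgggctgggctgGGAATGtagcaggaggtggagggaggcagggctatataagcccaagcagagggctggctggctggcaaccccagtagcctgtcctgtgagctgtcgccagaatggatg
Tnni1, chr1:135799171-135799470, plus strand: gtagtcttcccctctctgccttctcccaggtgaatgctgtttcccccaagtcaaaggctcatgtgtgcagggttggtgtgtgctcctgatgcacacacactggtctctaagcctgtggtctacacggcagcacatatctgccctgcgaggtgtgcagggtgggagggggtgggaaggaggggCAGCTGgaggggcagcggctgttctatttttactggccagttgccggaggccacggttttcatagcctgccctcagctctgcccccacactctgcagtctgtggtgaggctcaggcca
Myh2, chr11:67170777-67171076, plus strand: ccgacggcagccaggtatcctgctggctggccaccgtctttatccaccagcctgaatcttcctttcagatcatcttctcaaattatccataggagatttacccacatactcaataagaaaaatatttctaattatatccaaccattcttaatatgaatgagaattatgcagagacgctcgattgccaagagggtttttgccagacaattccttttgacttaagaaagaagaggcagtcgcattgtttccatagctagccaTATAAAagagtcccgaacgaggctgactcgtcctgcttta
Myh4, chr11:67237562-67237861, plus strand: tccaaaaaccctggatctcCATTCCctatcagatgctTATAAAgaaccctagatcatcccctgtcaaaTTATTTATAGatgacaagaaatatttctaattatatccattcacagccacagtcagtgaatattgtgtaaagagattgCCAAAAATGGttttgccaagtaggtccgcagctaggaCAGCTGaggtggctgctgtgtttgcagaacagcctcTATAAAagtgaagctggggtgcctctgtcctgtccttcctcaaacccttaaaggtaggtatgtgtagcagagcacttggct

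In these windows Tnnc1 holds 1 MCAT motif, Tnni1 1 E-box and Myh2 1 TATA motif. Myh4 holds 3 TATA motifs, 1 of which overlaps its MEF2 site, and 1 each of the E-box, the MCAT motif and the CArG box. Of the promoters of tested genes (11889 promoters of 9307 genes that matched by symbol) 15.8% hold the E-box, 12.3% the MCAT motif, 7.36% the TATA motif, 2.12% the MEF2 site and 1.35% the CArG box. Among promoters of genes higher in SOL with the fold limit (458 promoters) the shares were 22.9%, 12.2%, 11.1%, 5.24% and 1.97%, and among those lower in SOL (425 promoters) 23.3%, 12.0%, 9.88%, 2.82% and 2.82%. A match says only that the letters are there.

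Calcium handling divided along the same line. Of 35 tested genes in this list 22 fell in SOL, 5 rose and 8 did not pass, with a median of -0.65 (all tested genes, 19% lower and 24.2% higher). Pvalb, the cytosolic buffer parvalbumin that speeds relaxation of fast fibers, measured 6423, 4767, 9822, 5307 and 6407 in GC and 719.6, 131, 409.5, 264 and 391 in SOL. No libraries of the muscles overlapped, and the log2 fold change was -4.25 ± 0.27 (SE, adjusted p = 4.67e-05).

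For the calcium pump and for calsequestrin the fast gene fell and the slow gene rose. Atp2a1, the fast calcium pump of the sarcoplasmic reticulum, fell 3.23-fold from 12448 ± 927 to 3851 ± 997 (adjusted p = 0.000491). Atp2a2, the slow and cardiac pump, rose from 22.0 ± 18.6 to 1092 ± 69.3 (log2 fold change 5.92, adjusted p = 3.64e-05). Casq1, the fast calsequestrin that holds calcium in the store, was 3.81-fold lower in SOL and Casq2 12.5-fold higher, with adjusted p of 8.7e-05 and 2.5e-05.

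The small peptides that restrain the pump also differed by muscle. Sln (sarcolipin) measured 2.25, 2.22, 1.09, 2.05 and 0.994 in GC and 73.1, 149, 107, 159.9 and 127 in SOL, without overlap (log2 fold change 5.50 ± 0.20 SE, adjusted p = 9.03e-06). Mrln (myoregulin) fell 4.62-fold, from 95.3 ± 30.6 to 20.6 ± 3.91 (adjusted p = 2.19e-05). Pln (phospholamban) was low in both, at 0.692 ± 0.509 and 2.26 ± 0.907 (adjusted p = 0.000814). Rcan1, a calcineurin regulator and target, rose 3.45-fold (adjusted p = 0.000254).

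Genes for the use of glucose and glycogen were mostly lower in SOL. Of 26 tested genes of glycolysis and lactate 17 fell, 7 rose and 2 did not pass (median -1.30), and their share of all FPKM was 3.16 ± 0.52% in GC and 1.30 ± 0.13% in SOL. Pfkfb3, which makes the activator of phosphofructokinase, measured 78.6, 31.9, 64.3, 49.5 and 53.6 in GC and 5.73, 1.80, 2.74, 2.56 and 1.70 in SOL. This 19.1-fold difference, without overlap, was the largest fall of the list (adjusted p = 7.49e-06).

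The glycerol phosphate shuttle, which carries electrons from glycolysis to the mitochondrion, fell as a pair: Gpd1 was 8.26-fold and Gpd2 9.48-fold lower in SOL (adjusted p = 7.67e-05 and 1.5e-05). Core enzymes fell less, with Pfkm 2.57-fold, Aldoa 3.14-fold, Pkm 2.68-fold and Ldha 3.41-fold lower in SOL, at adjusted p between 0.000139 and 0.000393. Lactate genes divided: Slc16a3, which exports lactate, fell 7.06-fold (adjusted p = 6.48e-05), and Slc16a1, which can import it, rose 2.32-fold (adjusted p = 0.00177). Ldhb, the heart form of lactate dehydrogenase, rose from 99.8 ± 70.6 to 777 ± 110.3 (adjusted p = 0.000151). Hk2, the main muscle hexokinase, measured 69.8 ± 9.76 and 75.9 ± 5.55 (adjusted p = 0.405), while Hk1 rose 2.00-fold from 2.01 to 4.01 (adjusted p = 0.0021).

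Of 20 tested glycogen genes 13 fell, 3 rose and 4 did not pass (median -0.87). Of the subunits of phosphorylase kinase, which switches glycogen breakdown on, 3 fell: Phka1 by 7.26-fold (90.5 ± 18.3 to 12.5 ± 2.40, adjusted p = 1.26e-05), Phkg1 by 5.16-fold (adjusted p = 2.04e-05) and Phkb with a log2 fold change of -2.32 (adjusted p = 3.24e-05). The other α subunit gene, Phka2, was low in both muscles and rose from 1.40 to 1.95 (log2 fold change 0.30, adjusted p = 0.0147, and 0.0530 without mouse 57). The kinase's target Pygm, muscle phosphorylase, fell 5.14-fold (adjusted p = 0.000366). The gene of the branching enzyme of synthesis, Gbe1, rose 2.10-fold (adjusted p = 0.00165), and glycogen synthase Gys1 measured 149 ± 15.5 and 182 ± 38.5 (adjusted p = 0.225). Pygm and Eno3 are listed on contigs outside the numbered chromosomes, so no position is given for them here.

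Differences of oxidative genes were smaller. Of 81 respiratory chain and ATP synthase genes 49 rose and 0 fell in limma, 32 did not pass, and the median was 0.41. At an unadjusted p under 0.05, 62 rose and 0 fell. Their share of all FPKM was 3.96 ± 0.28% in GC and 5.38 ± 0.41% in SOL. Cox8a and Ndufb3, subunits of complexes IV and I, showed the largest differences, 2.16-fold (27.1 ± 3.46 to 58.4 ± 12.2) and 2.08-fold (111 ± 9.49 to 231 ± 33.3), with adjusted p of 0.00113 and 0.000423. The number that rose was 26 without mouse 57, 26 without mouse 58 and 25 without mouse 70. In these fits 2502, 2717 and 2434 of all 13235 genes rose, against 3204 with all mice.

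Of 33 tested genes of the tricarboxylic acid cycle and pyruvate entry 13 rose, 3 fell and 17 did not pass (median 0.22), beside 24.2% higher and 19% lower among all tested genes. Idh2, the mitochondrial NADP-dependent isocitrate dehydrogenase, measured 44.3, 138, 43.1, 60.8 and 42.2 in GC and 409, 563, 514, 443 and 517 in SOL. It stood far above the rest of the list with a log2 fold change of 3.03 ± 0.22 (SE, adjusted p = 8.32e-05), followed by Mdh1 at 1.29 (adjusted p = 0.000228). Pcx, which carboxylates pyruvate, fell from 27.3 to 10.5 (log2 fold change -1.28, adjusted p = 0.000469). The number that rose was 7 without mouse 57 and 8 without mouse 70, when 2502 and 2434 of all 13235 genes rose.

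In fatty acid uptake and oxidation 36 of 43 genes rose, 2 fell and 5 did not pass, with a median of 0.94. Lpl, the lipase that frees fatty acids at the capillary wall, measured 78.1, 185, 40.5, 101 and 75.4 in GC and 551, 426, 486, 402 and 521 in SOL, without overlap (log2 fold change 2.46 ± 0.30 SE, adjusted p = 0.000739). Downstream of it, the uptake protein Cd36 rose 3.05-fold (adjusted p = 0.000996), the cytosolic carrier Fabp3 6.35-fold (adjusted p = 3.28e-05) and Plin5, which coats lipid droplets beside mitochondria, 3.86-fold (adjusted p = 0.000151).

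Enzymes of β-oxidation followed, with Acaa2 rising from 78.6 to 238 (log2 fold change 1.62, adjusted p = 7.85e-05) and Ech1 from 105 to 311 (log2 fold change 1.56, adjusted p = 3.89e-05). The genes that fell were Ucp3, an uncoupling protein homolog, and Acsl6, a long-chain acyl-CoA synthetase. Ucp3 measured 40.8, 32.6, 107, 95.1 and 111 in GC and 18.6, 10.5, 51.4, 41.8 and 41.1 in SOL. Mice 57 and 58 were lowest in both muscles, so the groups overlap although every mouse was lower in SOL, and the adjusted p was 0.000115 with the mouse as a block and 0.0513 without it. The estrogen-related receptor motif AAGGTCA stands in 12.7% of 71 promoters of the respiratory list and 9.09% of 44 promoters of the fatty acid list, beside 3.50% of promoters of all tested genes. It was about as frequent among genes lower in SOL with the fold limit (6.12%) as among those higher (6.55%).

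Of 14 tested oxygen and phosphagen genes 8 rose and 3 fell (median 0.78), beside 24.2% higher and 19% lower among all tested genes. Mb, the oxygen store myoglobin, measured 1328, 2414, 1047, 1657 and 1146 in GC and 6001, 7080.0, 5958, 5720.3 and 8113 in SOL, without overlap (log2 fold change 2.17 ± 0.21 SE, adjusted p = 0.000281). Ckm, the cytosolic muscle creatine kinase, fell 2.83-fold from 16064 ± 3621 to 5671 ± 694 (adjusted p = 0.00109), while mitochondrial Ckmt2 rose 1.97-fold (adjusted p = 0.00125). Ampd1, the adenylate deaminase of working muscle, fell 3.92-fold (adjusted p = 3.68e-05).

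**Figure D3:**
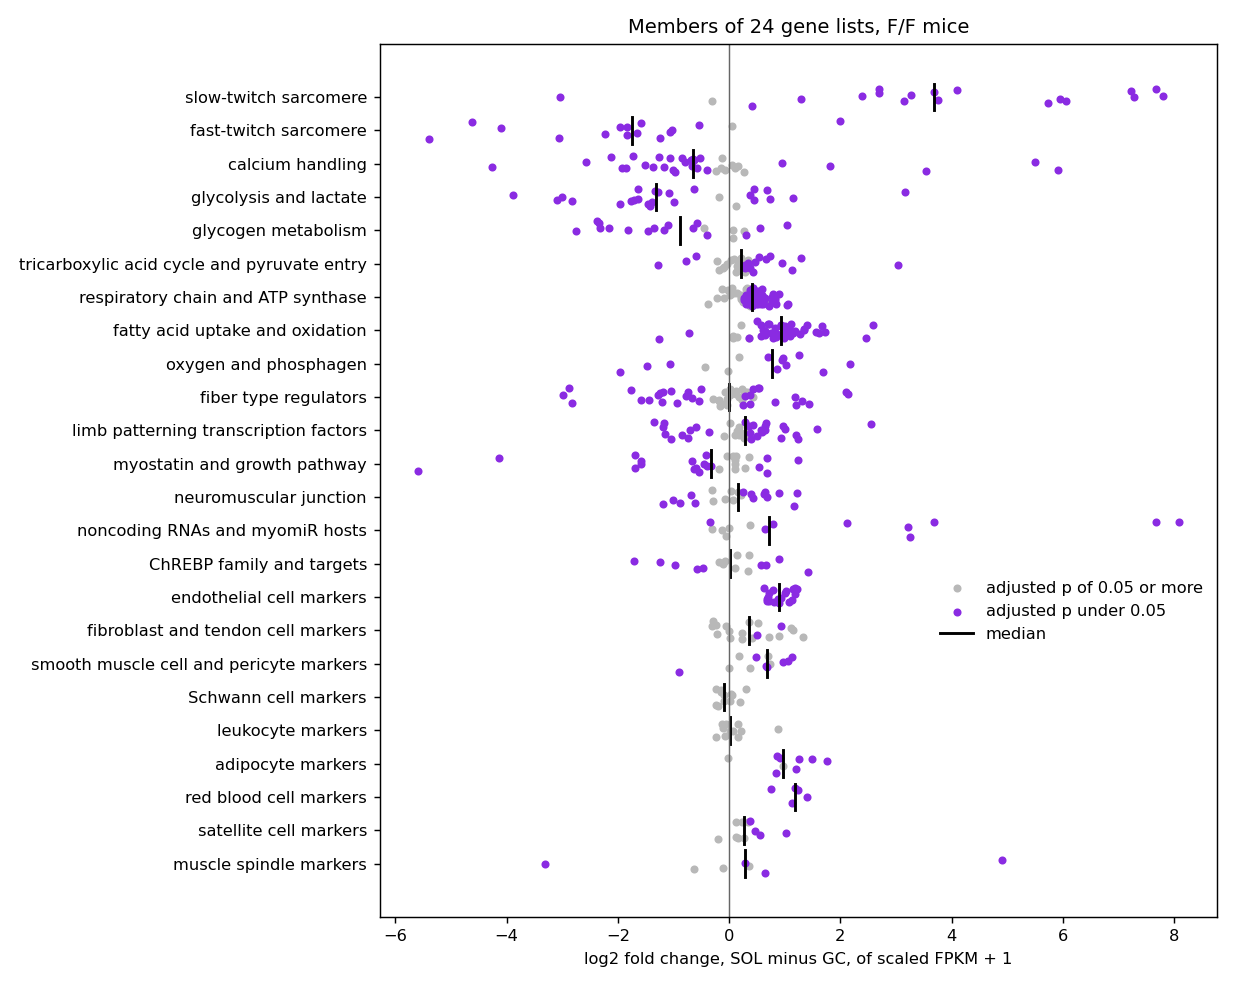
Log2 fold change (SOL minus GC) of each tested member of 24 gene lists, with a black line at the median and color for an adjusted p under 0.05. Slow-twitch genes (median 3.69) and fast-twitch genes (median -1.74) lie at the ends, fatty acid genes (median 0.94) and endothelial markers (median 0.90) lie nearly all to the right, and Schwann cell and leukocyte markers hold no colored point.

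Of 50 tested transcriptional regulators of fiber type 14 rose, 17 fell and 19 did not pass (median -0.01), beside 24.2% higher and 19% lower among all tested genes. Those that fell were led by factors known from fast fibers. Six2, a homeobox factor of the sine oculis family, measured 8.35, 4.60, 10.2, 9.56 and 12.7 in GC and 0.390, 0.282, 0.202, 0.186 and 0.0963 in SOL, a 39.2-fold difference in means without overlap (adjusted p = 6.03e-05).

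The large Maf factors, which drive Myh4 in type IIb fibers, fell with it. Maf measured 39.8, 43.3, 40.4, 39.5 and 38.8 in GC and 7.95, 3.52, 6.85, 3.71 and 2.80 in SOL (log2 fold change -2.87 ± 0.19 SE, adjusted p = 5.85e-05). The GC values of Maf were close together, and the SOL value was highest in mouse 57, whose SOL also held the most Myh4. The lowest SOL values fell on different mice, 71 for Maf (2.80) and 58 for Myh4 (17.7). A link between Maf and Myh4 across mice was not tested. Mafa fell 7.61-fold (adjusted p = 7.09e-05). Sox6, a repressor of slow genes, fell 2.92-fold (adjusted p = 0.000357), and Eya4, a partner of such factors, fell from 4.95 to 0.753 (log2 fold change -1.76, adjusted p = 4.34e-05). Bhlhe41, a clock-linked repressor, fell 3.59-fold (adjusted p = 3.24e-05).

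Among regulators that rose, Vgll2, a cofactor of TEAD factors linked to slow genes, went from 39.5 ± 16.4 to 169 ± 13.1 (log2 fold change 2.15, adjusted p = 0.000149). The estrogen-related receptors Esrrb and Esrrg, which drive oxidative genes, rose 7.38-fold and 3.42-fold (adjusted p = 9.36e-05 and 0.00216), while Esrra, the most abundant of the family, rose from 38.6 to 52.5 (log2 fold change 0.44, adjusted p = 0.00478). Prox1, a homeobox factor of slow fibers, measured 0.191 ± 0.0695 in GC and 1.74 ± 0.360 in SOL (adjusted p = 6.33e-05). Perm1, a muscle regulator of oxidative genes, rose from 53.4 to 131 (log2 fold change 1.32, adjusted p = 0.0006). Ppargc1a, the coactivator PGC-1α, measured 2.16, 3.14, 1.29, 2.25 and 2.89 in GC and 3.31, 2.58, 3.06, 2.39 and 6.82 in SOL. The muscles overlapped, and its adjusted p was 0.0922 (log2 fold change 0.43 ± 0.18 SE).

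Of 52 genes in the list of transcription factors that pattern the limb 37 were tested, of which 18 rose, 10 fell and 9 did not pass (median 0.28), where 24.2% of all tested genes rose and 19% fell. Barx2, a homeobox factor of muscle precursors, rose 6.62-fold from 4.19 ± 2.67 to 27.7 ± 7.30 (adjusted p = 0.000191). Emx2 measured 0.0959 ± 0.0711 in GC and 1.09 ± 0.170 in SOL (adjusted p = 0.000176). Tbx1 rose 4.28-fold (adjusted p = 0.000336). Tbx15, linked to glycolytic fibers, fell 2.10-fold (adjusted p = 0.000151).

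Hox genes, which record position along the body and limb axes in the adult, divided by their place in the cluster. That split was chosen after the values were seen, so it is a description. The table lists 36 Hox genes, and 22 of them were tested. Of 13 with paralog numbers up to 8, 10 were higher in SOL, 5 of them at an adjusted p under 0.05, and Hoxd8 fell (median 0.19). Of 9 with numbers from 9 on, 8 were lower in SOL, 7 of them at an adjusted p under 0.05, and 0 rose in limma, also at an unadjusted p under 0.05 (median -0.74). The exceptions were Hoxc9, at 5.61 ± 0.896 in GC and 6.47 ± 0.922 in SOL, and Hoxc11, at 6.52 ± 0.912 and 6.41 ± 2.39 (adjusted p = 0.204 and 0.732). With the deposited FPKM left unscaled, Hoxc9 rose in limma (log2 fold change 0.33, adjusted p = 0.0237) and Hoxa9 missed the threshold (adjusted p = 0.0609).

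Hoxa11, which patterns the middle limb segment, measured 5.23, 3.70, 6.17, 4.85 and 3.70 in GC and 1.86, 1.84, 1.63, 1.21 and 1.19 in SOL. Hoxd10 measured 0.951, 0.944, 1.13, 0.698 and 1.65 in GC and 0.101, 0.233, 0.204, 0.0959 and 0.0597 in SOL. For both genes the muscles did not overlap, and the log2 fold changes were -1.16 ± 0.12 and -0.85 ± 0.11 (SE, adjusted p = 0.000308 and 0.000995). Hoxc10, the most abundant Hox gene here, measured 60.2 ± 3.18 and 39.3 ± 2.11 (log2 fold change -0.60, adjusted p = 0.00122). Hoxa13 fell 3.89-fold, from 3.03 ± 0.656 to 0.777 ± 0.318 (adjusted p = 5.28e-05). Toward the other end of the same cluster Hoxa5 rose 1.97-fold, from 1.43 ± 0.317 to 2.81 ± 0.659 (adjusted p = 0.00711).

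**Figure D4:**
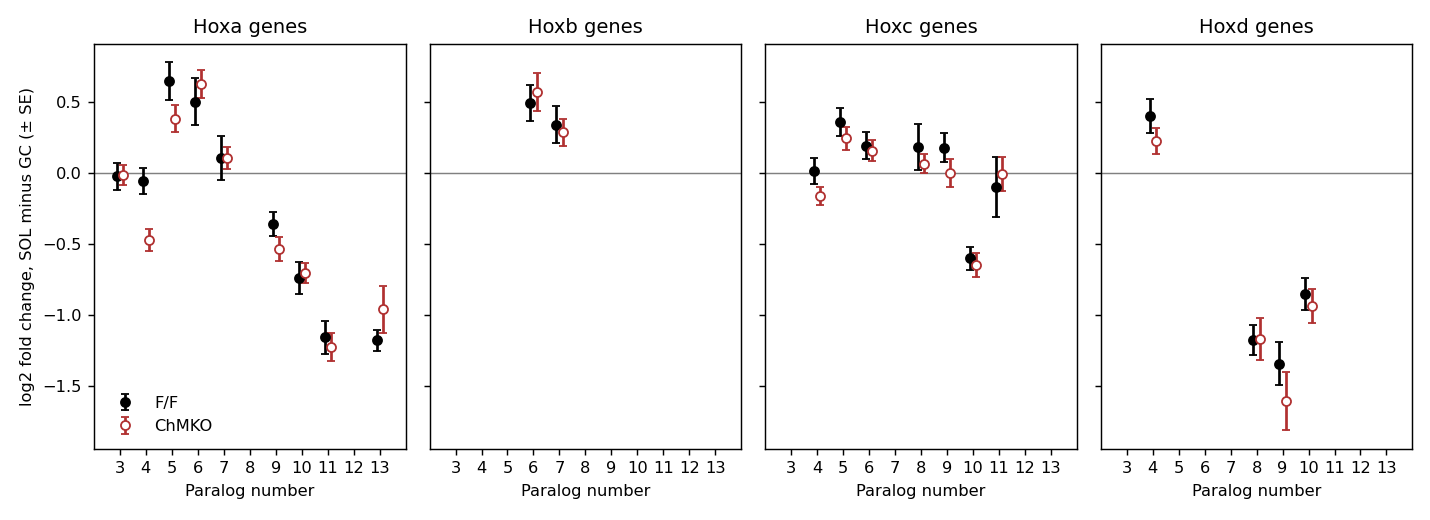
Log2 fold change (SOL minus GC, ± SE, n = 5 mice per genotype) of the 22 tested Hox genes by paralog number, 1 panel per cluster, for F/F (filled) and ChMKO mice (open). From paralog 9 on points lie below 0, other than those of Hoxc9 and Hoxc11, which lie near it, and most ChMKO points lie near the F/F points, with Hoxa4 (lower in ChMKO mice) as an exception.

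Mstn, which encodes the secreted brake on muscle mass myostatin, was far lower in SOL. It measured 38.8, 20.3, 25.2, 30.4 and 38.4 in GC and 2.14, 0.220, 0.994, 0.573 and 0.389 in SOL, without overlap (log2 fold change -4.13 ± 0.17 SE, 35.5-fold in means, adjusted p = 1.26e-05). Mss51, a mitochondrial protein of muscle known to respond to myostatin, measured 142, 85.4, 202, 134 and 67.5 in GC and 1.99, 0.942, 1.52, 1.02 and 1.93 in SOL (log2 fold change -5.60, adjusted p = 1.26e-05).

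Across the 27 tested genes of this pathway 14 fell, 4 rose and 9 did not pass (median -0.32), against 19% lower and 24.2% higher among all tested genes. The related ligand Gdf11 fell 7.86-fold and the type I receptor Acvr1b 3.86-fold (adjusted p = 4.15e-05 and 0.000122). The type II receptors Acvr2a and Acvr2b fell with log2 fold changes of -0.64 and -0.42 (adjusted p = 0.00172 and 0.0139, the latter 0.0765 without the mouse as a block). Among inhibitors, Fst (follistatin) rose 3.51-fold and Smad7, which blocks receptor signaling, 1.89-fold (adjusted p = 8.14e-05 and 0.00447). The follistatin-like genes Fstl1 and Fstl3 of the same list did not rise. Of the atrophy ligases Fbxo32 fell from 6.87 to 4.26 (adjusted p = 0.0158) and Trim63 from 169 to 130.5 (adjusted p = 0.013, and 0.141 without the mouse as a block).

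At the neuromuscular junction 9 of 21 tested genes rose, 5 fell and 7 did not pass (median 0.15), beside 24.2% and 19% of all tested genes. Acetylcholine receptor subunits differed in direction: Chrne, the adult subunit, fell 2.08-fold and Chrna1 rose 2.73-fold (adjusted p = 0.000384 and 0.000731). Ache, the enzyme that clears the transmitter, fell 2.61-fold while Colq, the collagen tail that anchors it, rose 2.83-fold (adjusted p = 0.000202 and 0.000198). The scaffold genes Musk and Rapsn both had a log2 fold change of -0.30 and missed the threshold (adjusted p = 0.0788 and 0.081).

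Noncoding RNA genes of muscle included some of the largest differences. Of 14 tested entries 8 rose, 1 fell and 5 did not pass (median 0.72), beside 24.2% and 19% of all tested genes. The 8 include Myh7 and Myh7b, host genes that code for protein, and Mhrt and Mir208b, which overlap Myh7. H19, an imprinted long non-coding RNA, rose 4.01-fold from 186 ± 99.3 to 746 ± 145 (adjusted p = 0.000529). Linc-md1, the host of the miR-206 and miR-133b hairpins on chromosome 1, measured 0.473, 3.08, 0.121, 0.963 and 0.248 in GC and 5.71, 22.5, 11.5, 23.2 and 22.8 in SOL (log2 fold change 3.21 ± 0.28 SE, adjusted p = 0.000172).

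Mhrt measured 36.1 ± 35.4 in GC and 4925 ± 1284 in SOL, but it lies on chromosome 14 from 54968787 to 54974349 on the plus strand, over Myh7 on the minus strand from 54970684 to 54994549. The libraries do not mark strand, so reads of Mhrt, of the neighboring antisense gene Gm31251 and of Myh7 cannot be told apart. Reads are also uncertain between Myh7 and its near copy Myh6, which was listed at 0.492 ± 0.485 in GC and 42.2 ± 4.38 in SOL, and between Myh4 and Myh8, at 199 ± 38.4 and 19.5 ± 5.12.

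MiRNA hairpins that lie within these hosts were listed too. Mir208b, in an intron of Myh7, was listed at 0 in all 5 GC libraries and at 8.02, 7.72, 10.1, 7.64 and 9.36 in SOL. Mir133b measured 2.13 ± 2.23 in GC and 47.0 ± 20.3 in SOL (adjusted p = 0.000176). Mir206 was listed at 0 in GC and at 0.769, 1.48, 0, 2.20 and 8.35 in SOL. These are fragments of the host transcript over the hairpin, not mature miRNA.

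The mature sequences of these miRNAs and of miR-499, which lies within Myh7b, are shown because their hosts rose in SOL. They are from RefSeq on GRCm38.p6, and capitals mark the seed, bases 2 to 8. The seeds of miR-208b and miR-499 are nearly the same, while those of miR-206 and miR-133b, which come from 1 host, differ.
mmu-miR-208b-3p: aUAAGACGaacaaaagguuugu
mmu-miR-499-5p: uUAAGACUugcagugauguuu
mmu-miR-206-3p: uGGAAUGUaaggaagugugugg
mmu-miR-133b-3p: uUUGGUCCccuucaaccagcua

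Mlxipl, the gene of ChREBP, was higher in SOL of F/F mice as FPKM over the whole gene. By qRT-PCR, the study found comparable mRNA of the ChREBP-α isoform in GC, SOL and other muscles of wild-type mice. FPKM over the whole gene does not separate isoforms. Mlxipl measured 24.7, 31.9, 24.3, 29.5 and 22.2 in GC and 53.4, 49.4, 45.3, 40.3 and 62.8 in SOL, without overlap (log2 fold change 0.89 ± 0.15 SE, 1.90-fold in means, adjusted p = 0.00273). Its paralog Mlxip (MondoA) fell from 17.1 to 12.2 (log2 fold change -0.47, adjusted p = 0.00573), and their common partner Mlx measured 3.30 and 3.57 (adjusted p = 0.378).

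Of 16 tested genes of the ChREBP family and its known targets 4 rose, 5 fell and 7 did not pass (median 0.01), beside 24.2% higher and 19% lower among all tested genes. Acly and Acaca, which make and carboxylate acetyl-CoA for fat synthesis, rose with log2 fold changes of 0.66 and 0.58 (adjusted p = 0.00212 and 0.00331). Me1, malic enzyme, fell 3.37-fold from 79.8 ± 8.18 to 23.7 ± 2.49 (adjusted p = 1.5e-05). Txnip, a glucose-induced target, measured 186 and 163 (adjusted p = 0.421). Scd1, a desaturase that fat cells also hold, rose 3.14-fold with an adjusted p of 0.0361, which was 0.106 without the mouse as a block.

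Markers of other cell types moved with the muscle. In these whole-muscle samples, fewer cells of a type and less RNA per cell cannot be told apart. Of 19 tested endothelial markers 19 rose, beside 24.2% of all genes, with a median of 0.90, and their summed level was 202 to 299.3 in GC and 384 to 880 in SOL. Pecam1, an adhesion protein of endothelium, measured 17.0, 23.5, 12.3, 21.6 and 17.4 in GC and 32.8, 35.2, 40.6, 36.9 and 60.7 in SOL, without overlap (adjusted p = 0.00287). All 5 tested red blood cell genes rose, and Hba-a1, an α-globin, went from 43.4 ± 10.2 to 106 ± 36.1 (adjusted p = 8.41e-05), though reads may be shared with Hba-a2. Endothelial and blood genes thus moved beside Lpl, Cd36, Fabp3 and other lipid genes that endothelial cells also hold, and their part in those results was not tested.

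Adipocyte markers (9 tested) rose in 7 cases with a median of 0.97. Adipoq measured 5.30, 1.20, 11.4, 9.32 and 2.15 in GC and 10.1, 25.1, 27.8, 25.4 and 3.37 in SOL, so that the muscles overlapped (adjusted p = 0.0204). Their summed level without Car3, which muscle fibers also make, was 13.1 to 99.7 in GC and 44.9 to 192 in SOL. Without the mouse as a block 2 of the 9 passed. The part of fat cells in the differences of Scd1, Lpl and Cd36 was not tested. Of 12 smooth muscle cell and pericyte markers 6 rose, among them Acta2 from 19.7 ± 5.13 to 42.7 ± 14.4 (adjusted p = 0.00803), and Abcc9, which muscle fibers share, fell (adjusted p = 0.00107).

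Other cell types gave few calls. Of 19 fibroblast and tendon markers 2 rose and 0 fell in limma (5 and 0 at an unadjusted p under 0.05), with a median of 0.35, and their summed level was 418 to 866 in GC and 253 to 901 in SOL. Scx, the tendon transcription factor, was the clearer of the pair, at 2.58 ± 0.345 and 5.87 ± 0.981 (adjusted p = 0.000492). Tendon matrix genes depended on the library: Fmod measured 100.2, 52.8, 5.40, 47.2 and 49.1 in GC and 100.4, 113, 94.4, 87.5 and 4.05 in SOL. GC of mouse 69 and SOL of mouse 71, which stand apart on the second principal component, were its lowest libraries. Without mouse 71, 7 of the 19 tendon and fibroblast genes rose.

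Of 12 Schwann cell markers and 11 leukocyte markers 0 passed in limma (0 and 1 at an unadjusted p under 0.05, medians -0.09 and 0.02), and their summed levels overlapped between muscles. For the Schwann cell list the sum ranged from 28.3 to 524 in GC and from 43.0 to 134 in SOL. Without mouse 69, 2 Schwann cell markers rose. Of 11 satellite cell markers 4 rose (median 0.26), beside 24.2% of all genes, led by Sdc4, a syndecan that also occurs outside satellite cells, at 17.8 and 37.7 (adjusted p = 0.000201). Of 7 spindle markers 3 rose and 1 fell (median 0.29), and Myh6 and Myh8, the members that moved most, are the heavy chain genes whose reads may be shared with Myh7 and Myh4.

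**Figure D5:**
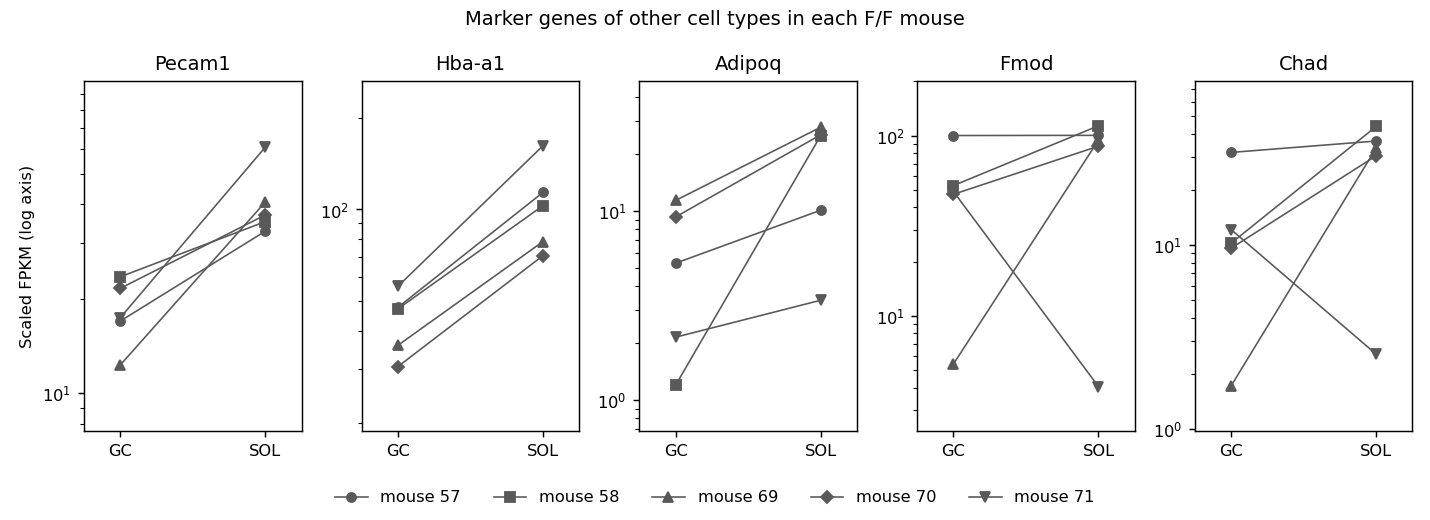
Scaled FPKM (log axis) of 5 marker genes in GC and SOL, with a line per F/F mouse. Pecam1, Hba-a1 and Adipoq rise in every mouse, while Fmod and Chad fall only in mouse 71.

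The most variable genes of each muscle were also listed. Over the 5 GC libraries the SD of log2(scaled FPKM + 1) was 2.15 for Myh7, 2.12 for Tnnc1 and 1.65 for Tnnt1. Over the 5 SOL libraries it was 2.35 for Myh4, 1.93 for Fmod and 1.52 for Chad. The genes that vary most within a muscle are thus, beside tendon, transfer RNA and other genes, the slow genes in GC and the IIb myosin in SOL, each in the muscle where it is the minor form.

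The comparison was repeated in ChMKO mice. Their Mlxipl, as deposited FPKM over the whole gene, was 12.5 to 18.5 in GC and 30.0 to 46.1 in SOL, against 20.4 to 30.3 and 43.8 to 64.1 in F/F mice. With the fold limit 469 genes (3.54%) were higher and 481 (3.63%) lower in SOL of ChMKO mice. Of the 498 genes higher in F/F mice 75.3% passed both limits in ChMKO mice as well, which is 80.0% of the ChMKO list, and 495 had the same sign. Of the 456 lower genes 87.1% passed again, which is 82.5% of the ChMKO list, and 454 had the same sign. Log2 fold changes in ChMKO mice were 8.30 for Tnnc1, -5.98 for Myh4, 5.35 for Sln, -4.32 for Mstn and 2.91 for Lpl. The posterior Hox genes gave the same counts, 0 higher and 7 lower of 9.

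Whether a difference between the muscles depends on the genotype was tested on the difference between SOL and GC within each mouse. Of 13176 genes 777 (5.90%) had an unadjusted p under 0.05 and 1 passed in limma, the long non-coding RNA Gm38954. As it is listed at 0 in every F/F library, its value reflects the ChMKO libraries alone and shows no muscle difference that depends on genotype. For all the genes of the lists described here the difference between genotypes missed the threshold, which does not show that the muscles differ alike in both.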

How the data were processed

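RNA of whole GC and SOL was extracted with TRIzol and sequenced on an Illumina instrument from libraries that do not mark strand. The table of the whole series holds FPKM per gene, which the authors made and deposited. The submitters' processing notes name fastp 0.18.0, Bowtie2 2.2.8, HISAT2 2.1.0, StringTie 1.3.1 and RSEM, and the build GRCm39, whereas the positions in the table are those of GRCm38. The titles of the F/F samples also carry the name of the ChMKO line, and the groups were taken from the column names, genotype and muscle given in the labels.

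Of 30250 entries, 1011 that repeat a symbol were left out, which left 29239 genes. Each library's FPKM was divided by its median ratio to the geometric mean over genes above 1 FPKM in all 10 libraries, and log2(scaled FPKM + 1) was fitted in limma 3.58.1 (R 4.3.3, with a trend of variance on level) with muscle and mouse as terms. Genes that averaged 0.5 FPKM or more were tested, and p-values were adjusted by the Benjamini-Hochberg method over all of them. A gene is said to rise or fall in SOL where its adjusted p was under 0.05, and counts with the fold limit also needed a log2 fold change of at least 1 in size. A fold change on this scale understates that of genes with low levels, and n-fold values are ratios of mean scaled FPKM. FPKM values of entries with 1 read gave back the mapped total of each library, with 100% of values whole within 0.01 of a read. No 2 libraries held identical values. The genotype difference was tested on the difference between SOL and GC of each mouse, over F/F and ChMKO mice.

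Libraries of a mouse were taken as pairs since they come from 1 animal. Deviations of GC and SOL from their group means correlated at 0.318 for mouse 57, 0.125 for 58, -0.0196 for 69, 0.247 for 70 and 0.108 for 71. The alternatives were the deposited FPKM without scaling, upper quartile scaling, a pseudocount of 0.1, a mean of at least 5 FPKM, no filter, no block, the mouse as a random effect with number 69 as 2 mice (statmod 1.5.0), and leaving out each mouse. The script was tested on simulated data. Figures were drawn with matplotlib 3.10.9.

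Named genes were 11 fiber markers and Mlxipl, the 10 genes that rose and the 10 that fell most with the same sign in all 5 mice, in each of 24 lists up to 4 called members with the largest change in each direction and the most abundant member, the 10 most abundant genes of each muscle and the 6 most variable ones. Any other list member may be given with its value, and some genes that the rule names are not reported here. The members, the lists and the questions asked of them were chosen with earlier results of these data known, so no count here is independent support for a pattern.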

Additional observations from a re-analysis of the deposited data

Results flagged for a closer look

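In 66 checks, of 33 genes in each muscle, 1 library lay far from the other 4 of its group in 7 cases. Chance gives such a gap in about 1 of 20 groups when genes are chosen without regard to their spread. Fmod, Chad and TrnK are among the most variable genes of SOL, so the 7 cases cannot be read against that rate. SOL of mouse 71 was high in Myh7b, at 30.3 scaled FPKM against 13.6 to 17.0 in the other SOL libraries, and in Tpm3, at 764.2 against 388.5 to 461.2. The same library was low in the tendon matrix genes Fmod, at 4.05 against 87.5 to 113.4, and Chad, at 2.55 against 30.5 to 44.0. GC of mouse 69 was low in Fmod, at 5.40 against 47.2 to 100.2. GC of mouse 57 held BC023105 at 64.8 against 19.3 to 26.6, and SOL of mouse 57 held the mitochondrial transfer RNA TrnK at 583.8 against 5.82 to 17.1.

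Gm38954 passed the test of the genotype difference, at -1.42 on the log2 scale (SOL minus GC, ChMKO minus F/F, limma, adjusted p = 0.0411). As deposited FPKM this gene was 7.98 to 13.1 in GC and 2.61 to 4.88 in SOL of the 5 ChMKO mice, and was listed at 0 in all 10 F/F libraries. It entered the test only through the ChMKO libraries, so the value is that of ChMKO mice alone and is no evidence that a muscle difference depends on genotype.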

How the results depend on the processing

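With the deposited FPKM left unscaled, 4869 genes were higher and 1598 lower in SOL, since every log2 fold change then moves up together. A pseudocount of 0.1 gave 944 higher and 691 lower genes with the fold limit, as low genes are shrunk less. A mean of at least 5 FPKM, with 5997 genes tested, left 2988 genes (1517 higher, 1471 lower), 329 of them higher with the fold limit. Upper quartile scaling gave 501 and 453 with the fold limit and no filter gave 482 and 454. Leaving out 1 mouse gave 461 to 560 higher and 415 to 491 lower genes with the fold limit, and 4288 to 5321 genes in all.

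Without the mouse as a replicate block 489 genes were higher and 456 lower with the fold limit, of which 487 and 455 were the same genes as with the block. Of 169 named genes 10 lost their call without it, among them Adipoq, Pdk4, Plin1, Scd1, Trim63 and Ucp3. With no filter 10 lost it, among them Tnnc2 (adjusted p = 0.0757), Adipoq and Scd1. None of the named genes reversed its direction under these alternatives. For the genotype difference 0 genes passed in limma with unscaled FPKM (765 at an unadjusted p under 0.05), a pseudocount of 0.1 (773) or a mean of at least 5 FPKM (296), a limit under which the 1 gene of the text, Gm38954, was not tested. Leaving out 1 F/F mouse gave 0 to 1 gene, another gene in the case of mouse 71 (Slc25a30). The cause was not tested.

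With 5 mice and 1 library per muscle, small differences such as those of respiratory chain genes pass or miss the threshold with single mice. Levels under about 1 FPKM rest on few fragments.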

Other observations

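Genes of several groups outside the lists above also differed between the muscles of F/F mice. The groups were put together after their values were seen, so they are descriptions. Genes of polyamine metabolism held some of the largest falls. Smox, which oxidizes spermine, measured 250.1, 132, 191, 165 and 507 in GC and 19.1, 4.62, 10.4, 7.37 and 15.4 in SOL, without overlap (log2 fold change -4.31, adjusted p = 1.26e-05). Amd1, which supplies the propylamine donor, fell from 583 to 31.3 (18.6-fold), though its reads may be shared with its near copy Amd2. Odc1, the first enzyme of the pathway, fell 3.25-fold and Sms, spermine synthase, 2.89-fold. Of 12 tested genes of this group 5 fell and 2 rose, with a median of -0.09, beside 19% lower and 24.2% higher among all tested genes.

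Among the subunits of AMPK, the energy-sensing kinase, Prkag3 fell 13.2-fold from 64.0 to 4.85 (adjusted p = 9.98e-06), Prkab2 7.31-fold (adjusted p = 1.68e-05) and Prkaa2 2.37-fold, while Prkag1 rose from 27.6 to 36.1 (adjusted p = 0.00863). Of 7 tested sodium pump subunits 5 rose and 1 fell (median 0.82), beside 24.2% higher and 19% lower among all tested genes, with Atp1b1 rising 3.17-fold and Atp1b2 falling 9.40-fold from 98.4 to 10.5. Of 7 small heat shock proteins 5 rose and 1 fell, against the same background, with Hspb7 at 75.1 and 581, Cryab at 336 and 1268 and Hspb6 at 538 and 1675 in GC and SOL, and Hspb8, which fell, at 219 and 145. Of 13 protein genes encoded in the mitochondrion 3 rose (median 0.40), a share near the 24.2% of all tested genes, led by COX3, which rose 2.08-fold, while COX1 missed the threshold (log2 fold change 0.48, adjusted p = 0.166).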
